A study of Mus musculus with 6 samples.

Results

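Genes for histone-modifying and chromatin-remodelling proteins were followed in cells of the mouse line MLL-ENL-ERtm, which carry an MLL-ENL fusion (tumour label: acute monocytic leukemia). They were chosen by gene symbol: every row of the deposited table whose symbol begins with Kmt2, Setd, Prmt, Kat2 to Kat8, Kdm1 to Kdm8, Hdac, Sirt1 to Sirt7, Brd1 to Brd9, Smarc, Arid1 to Arid5 or Chd1 to Chd9. This gave 104 of 13839 genes. In 3 libraries (shTet1) the cells expressed hairpins against Tet1, labelled a+b in the study design, from a retroviral pGFP-V-RS vector, and in 3 libraries (shNS) a scrambled, non-specific hairpin took their place. Both groups share the fusion, puromycin selection at 1 µg/mL and adaptation to SILAC medium. All RNA came from a single cell line, and polyadenylated RNA was sequenced as single-end reads of 51 bp, with 15873632 to 18592139 reads per library on the genes of the table. Levels are in FPKM, read counts corrected for the length of the gene and the depth of the library. The members include 2 that encode no protein, the pseudogene Smarca5-ps and the long non-coding RNA Chd3os.

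Histones carry methyl and acetyl groups that are added by writers, removed by erasers and bound by readers, and remodellers use ATP to move or eject nucleosomes. In leukaemia with MLL fusions, the fusion replaces one copy of the methyltransferase MLL, and several of these enzymes are known as cofactors or drug targets. Tet1 oxidises 5-methylcytosine in DNA and binds CpG-rich sequence, and the protein is known to associate with a Sin3a complex that holds Hdac1 and Hdac2.

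Tet1 itself stood at 0.0982, 0.155 and 0.139 FPKM in shTet1 replicates 1, 2 and 3, against 0.489, 0.392 and 0.446 FPKM in shNS replicates 1, 2 and 3, so every knockdown library lay below every control (exact two-sided permutation test, p = 0.1, the smallest that 3 against 3 allows). Monocyte and macrophage markers summed to 11057 to 16805 FPKM in shTet1 and 3300 to 3805 FPKM in shNS, with 13 of 13 tested higher. Most of that sum was Lyz2, at 9456 to 14763 FPKM in shTet1 and 2789 to 3221 FPKM in shNS. Stem and progenitor markers summed to 85.5 to 101 FPKM in shTet1 and 244 to 261 FPKM in shNS, with 8 of 9 lower, and 14 of 14 genes of cell division were lower, summing to 554 to 704 FPKM against 1071 to 1110 FPKM. The lists for B cells, T cells and erythroid cells summed to at most 4.20 FPKM in any library. That for stromal cells summed to 20.04 to 23.6 FPKM in shTet1 and 29.5 to 33.6 FPKM in shNS. Nearly all of the stromal sum was Pecam1, at 21.3 ± 1.76 FPKM in shTet1 and 31.3 ± 2.07 FPKM in shNS. Pdgfra and Pdgfrb averaged 0.181 and 0.207 FPKM in shTet1, above their 0.0224 and 0.133 FPKM in shNS. The part of these shifts in the results for chromatin genes was not tested, and in RNA from whole cultures fewer cells of a kind and less RNA per cell cannot be told apart.

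Chromatin genes were more often lower than higher in shTet1. Among 100 members that reached 1 FPKM in at least 3 libraries, 42 fell and 7 rose (limma on log2(FPKM + 1), Benjamini-Hochberg adjusted p under 0.05 over 11646 genes). Over all tested genes, 33.7% were lower and 19.4% higher. The members' median log2 change was −0.26, against −0.13 for all tested genes. With median-of-ratios scaling, which moved the all-gene median to −0.01, 28 members fell and 9 rose, beside 23.7% lower and 24.8% higher among all tested genes. The 28 were all among the 42, and the 7 rises were among the 9. Lower calls thus lay above the background by a margin that shrank with the scaling, while rises lay below it under both. All 3 shTet1 libraries lay below all 3 shNS libraries for 51 tested members (39.1% of all tested genes) and above them for 8 (22.6%). The count of falls rested in part on single libraries: it was 26 without shTet1 replicate 2 (25.5% of all genes tested in that fit were lower) and 24 without shNS replicate 3 (23.4%). In both of these fits the members' share of falls was close to that of all genes. In the authors' deposited table, 30 of the 104 members were lower and 12 higher, beside 22.1% and 23.7% of all its genes. Of the 49 members called by limma, 35 were called there in the same direction and 0 in the opposite one. Hdac1, Hdac8, Kdm8 and Kdm2b were among those not called there. Without the 2 members that encode no protein, an alternative chosen after seeing the data, 41 fell and 7 rose.

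**Figure D1:**
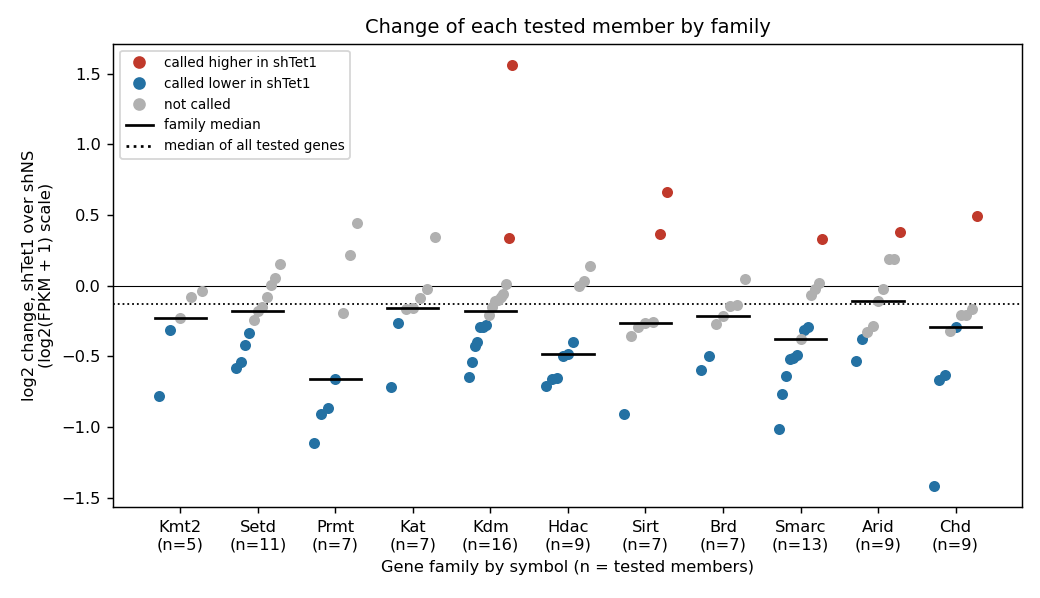
Each point is 1 tested member, placed by gene family on the x axis and by its log2 change (shTet1 over shNS, on the log2(FPKM + 1) scale) on the y axis. Colours mark the call, black bars the family medians and the dotted line the all-gene median of −0.13. Kdm7a at 1.56 is the highest point and Chd3 at −1.42 the lowest, and the Prmt family has the lowest median, −0.66.

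Families differed in how many members moved. The protein arginine methyltransferases had the lowest median (log2 change −0.66, and −0.53 against the median of all genes), with 4 of 7 lower. The zinc-dependent deacetylases followed (−0.48, and −0.35 against all genes), with 6 of 9 lower, and then the Smarc genes (−0.38, and −0.25 against all genes), with 8 of 13 lower and 1 higher. The Chd genes had 4 of 9 lower and 1 higher (−0.29), the sirtuins 1 of 7 lower and 2 higher (−0.27), the Kmt2 genes 2 of 5 lower (−0.23), the bromodomain genes 2 of 7 lower (−0.21), the Kdm genes 7 of 16 lower and 2 higher (−0.18), the Setd genes 4 of 11 lower (−0.18), the lysine acetyltransferases 2 of 7 lower (−0.16) and the Arid genes 2 of 9 lower and 1 higher (−0.11). Roles were set by gene symbol, not by known substrate. Writers thus include the actin methyltransferase gene Setd3, and erasers the polyamine deacetylase gene Hdac10 and the mitochondrial Sirt3. The symbols taken as remodellers include the transcription factor gene Arid3a and the pseudogene Smarca5-ps. By these roles, 12 of 30 writers fell and 0 rose, 14 of 32 erasers fell and 4 rose, and 2 of 7 readers fell and 0 rose. Of 31 remodeller genes (the Smarc, Arid and Chd symbols), 14 fell and 3 rose. Over all tested genes, 33.7% were lower and 19.4% higher. Median-of-ratios scaling left 8 writers, 10 erasers, 2 readers and 8 remodeller genes lower, and 2, 4, 0 and 3 higher. Under that scaling 23.7% of all tested genes were lower and 24.8% higher. With median-of-ratios scaling the falls were 4 of 7 arginine methyltransferases and 6 of 9 deacetylases as before, but 3 of 16 Kdm genes, 5 of 13 Smarc genes, 2 of 11 Setd genes, 1 of 5 Kmt2 genes, 1 of 7 acetyltransferases and 0 of 9 Arid genes. With the replicate number as a block, which called 41.0% of all tested genes lower, falls numbered 3 of 5 Kmt2 genes, 5 of 11 Setd genes, 8 of 16 Kdm genes, 3 of 7 sirtuins, 4 of 7 bromodomain genes, 9 of 13 Smarc genes, 4 of 9 Arid genes and 7 of 9 Chd genes, and stayed at the main count in the other families. No test compared the families with each other.

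Among the Kmt2 genes, most of which encode methyltransferases of histone H3 lysine 4, the founding member was the one with the largest change. Kmt2a (gene ID 214162, chromosome 9, 44803355 to 44881352, GRCm38), which encodes MLL, stood at 15.1, 14.5 and 15.2 FPKM in the 3 shTet1 libraries, against 25.5, 25.7 and 28.03 FPKM in the 3 shNS libraries. The groups lay far apart, with shTet1 at 56.6% of shNS (log2 change −0.78, SE 0.08, limma adjusted p = 0.000202). The MLL-ENL fusion itself holds the first part of MLL, and these gene-level values do not separate reads of the fusion from reads of the native gene. Kmt2c, an enhancer methyltransferase, had 6.78, 5.77 and 6.07 FPKM in shTet1 and 8.07, 7.70 and 8.09 FPKM in shNS (log2 change −0.31, limma adjusted p = 0.0189). Median-of-ratios scaling ended that call (limma adjusted p 0.0872), as did leaving out shTet1 replicate 2, shNS replicate 1 or shNS replicate 3 (up to 0.073). Kmt2e, the highest but one of the family by level, averaged 16.1 ± 1.44 FPKM in shTet1 and 16.5 ± 1.90 FPKM in shNS (SD, n = 3 each), and its log2 change of −0.036 became 0.092 with median-of-ratios scaling. Kmt2b and Kmt2d were not called, but the replicate block called Kmt2d lower (limma adjusted p 0.134 without and 0.0212 with the block).

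In the Setd group of SET-domain methyltransferases, 4 of 11 fell, beside 33.7% of all tested genes. With median-of-ratios scaling 2 of 11 fell, beside 23.7%. Setd6, which methylates the NF-kB subunit RelA, stood at 3.98, 3.97 and 5.06 FPKM in shTet1, against 5.83, 6.64 and 8.62 FPKM in shNS (log2 change −0.58, SE 0.15, limma adjusted p = 0.0117). The groups did not overlap, although each spread widely. Setd7, a lysine monomethyltransferase, averaged 14.5 ± 1.87 FPKM in shTet1 and 19.6 ± 1.37 FPKM in shNS (log2 change −0.42, limma adjusted p = 0.0122), a call that ended without shTet1 replicate 2 or shNS replicate 3 (up to 0.0529). Setdb1, which methylates histone H3 on lysine 9 and silences retroelements, averaged 14.1 ± 0.808 FPKM in shTet1 and 18.01 ± 1.35 FPKM in shNS (log2 change −0.33, limma adjusted p = 0.0151). Setd1a, a catalytic subunit of a COMPASS complex, had 9.36, 12.0 and 15.1 FPKM in shTet1, against 14.9, 19.9 and 19.1 FPKM in shNS (log2 change −0.54, limma adjusted p = 0.03). The highest Setd1a value in shTet1 passed the lowest in shNS. The calls of Setdb1 and Setd1a were lost under the median-of-ratios scale (limma adjusted p 0.0904 and 0.0863). They also ended without shTet1 replicate 2, shNS replicate 2 or shNS replicate 3, and that of Setd1a without shTet1 replicate 1 as well (up to 0.0647 for Setdb1 and 0.0974 for Setd1a). The members with the highest levels did not pass the test: Setd8, the histone H4 lysine 20 monomethyltransferase that RefSeq lists as Kmt5a, averaged 58.3 ± 7.07 FPKM in shTet1 and 56.0 ± 6.34 FPKM in shNS (limma adjusted p = 0.722). Setd3, an actin histidine methyltransferase, averaged 32.9 ± 1.03 FPKM in shTet1 and 32.8 ± 0.620 FPKM in shNS (limma adjusted p = 0.991). Setd2, the methyltransferase of histone H3 lysine 36, averaged 16.1 ± 1.80 FPKM in shTet1 and 18.3 ± 0.962 FPKM in shNS (limma adjusted p = 0.168).

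Arginine methyltransferases held 4 falls of similar size among 7 tested, beside 33.7% lower over all tested genes. Prmt1 (gene ID 15469, chromosome 7, 44976755 to 44986420), the main asymmetric arginine dimethyltransferase of mammalian cells, stood at 45.1, 50.9 and 58.6 FPKM in shTet1, against 103, 121 and 112 FPKM in shNS. Every knockdown library held well under the lowest control, and shTet1 stood at 45.9% of shNS (log2 change −1.11, SE 0.11, limma adjusted p = 0.000205). Prmt5, the main symmetric dimethyltransferase, had 16.8, 19.7 and 24.2 FPKM in shTet1 and 34.9, 37.9 and 39.2 FPKM in shNS (log2 change −0.87, limma adjusted p = 0.00111). Prmt7, which monomethylates arginine, had 10.6, 10.9 and 13.7 FPKM in shTet1 and 24.4, 22.0 and 21.8 FPKM in shNS (log2 change −0.91, limma adjusted p = 0.000473). Prmt3, whose known substrate is a protein of the small ribosomal subunit, had 11.6, 13.3 and 14.01 FPKM in shTet1 and 20.9, 21.5 and 20.7 FPKM in shNS (log2 change −0.66, limma adjusted p = 0.000725). In all 4 genes the groups stayed apart, the highest knockdown value was that of shTet1 replicate 3, and the call held whichever library was left out. Prmt2, a weakly active member, was not called at 2.49 ± 0.561 FPKM in shTet1 and 1.58 ± 0.504 FPKM in shNS (limma adjusted p = 0.0599), but was with median-of-ratios scaling (0.0305) and with the replicate block (0.0078).

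Promoter sequence is shown for 2 of the 4 lower arginine methyltransferase genes, picked because their promoter windows held the motif searched. Of the 104 members, 80 matched a RefSeq promoter (GRCm38.p6, 250 bases before to 50 after a start), with 108 windows among them. The motif searched was CACGTG, the E-box bound by MYC family proteins, which reads the same on both strands. It occurred in 6.48% of the members' windows and in 7.15% of all 32851 windows. Among members with a window, 3 of 33 called lower and 4 of 40 not called had a match. Whether the motif has a part in the falls was not tested. Prmt1 and Prmt3 each had 1 match (in capitals), and Prmt5 and Prmt7 had none in their windows.
Prmt1, chr7:44986371-44986670, minus strand: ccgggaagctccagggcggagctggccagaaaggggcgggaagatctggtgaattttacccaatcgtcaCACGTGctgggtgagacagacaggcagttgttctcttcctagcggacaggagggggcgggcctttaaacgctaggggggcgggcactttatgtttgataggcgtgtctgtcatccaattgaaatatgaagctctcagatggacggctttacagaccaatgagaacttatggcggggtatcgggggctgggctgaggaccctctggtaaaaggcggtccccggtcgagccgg
Prmt3, chr7:49778108-49778407, plus strand: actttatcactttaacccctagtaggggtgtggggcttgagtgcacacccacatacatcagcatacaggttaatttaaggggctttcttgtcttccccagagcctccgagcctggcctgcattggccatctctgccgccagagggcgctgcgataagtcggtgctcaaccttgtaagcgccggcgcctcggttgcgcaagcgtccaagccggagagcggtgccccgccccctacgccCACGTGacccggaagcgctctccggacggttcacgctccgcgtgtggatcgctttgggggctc

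Lysine acetyltransferases mostly did not pass the test. Kat2a, the GCN5 acetyltransferase of the SAGA complex, had 10.1, 14.3 and 16.9 FPKM in shTet1, against 18.8, 25.9 and 24.4 FPKM in shNS (log2 change −0.71, SE 0.19, limma adjusted p = 0.0139). The highest knockdown value lay just under the lowest control value, and the call ended without shNS replicate 2 or shNS replicate 3 (up to 0.0529). Its paralog Kat2b, or PCAF, was at 9.43, 7.02 and 6.29 FPKM in shTet1 and 6.02, 5.25 and 5.81 FPKM in shNS. It was not called (limma adjusted p = 0.07), but was with median-of-ratios scaling (0.0258) and with the replicate block (0.0271). Kat7, or HBO1, which acetylates histones H3 and H4 and is known as a dependency of MLL-rearranged leukaemia, averaged 18.3 ± 1.63 FPKM in shTet1 and 22.2 ± 0.390 FPKM in shNS (log2 change −0.27, limma adjusted p = 0.0323). Median-of-ratios scaling ended that call (0.216), and so did every fit in which a library other than shTet1 replicate 3 was left out (up to 0.112). Kat6a, or MOZ, a fusion partner in acute myeloid leukaemia, averaged 10.03 ± 0.794 FPKM in shTet1 and 11.3 ± 0.868 FPKM in shNS (limma adjusted p = 0.2).

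**Figure D2:**
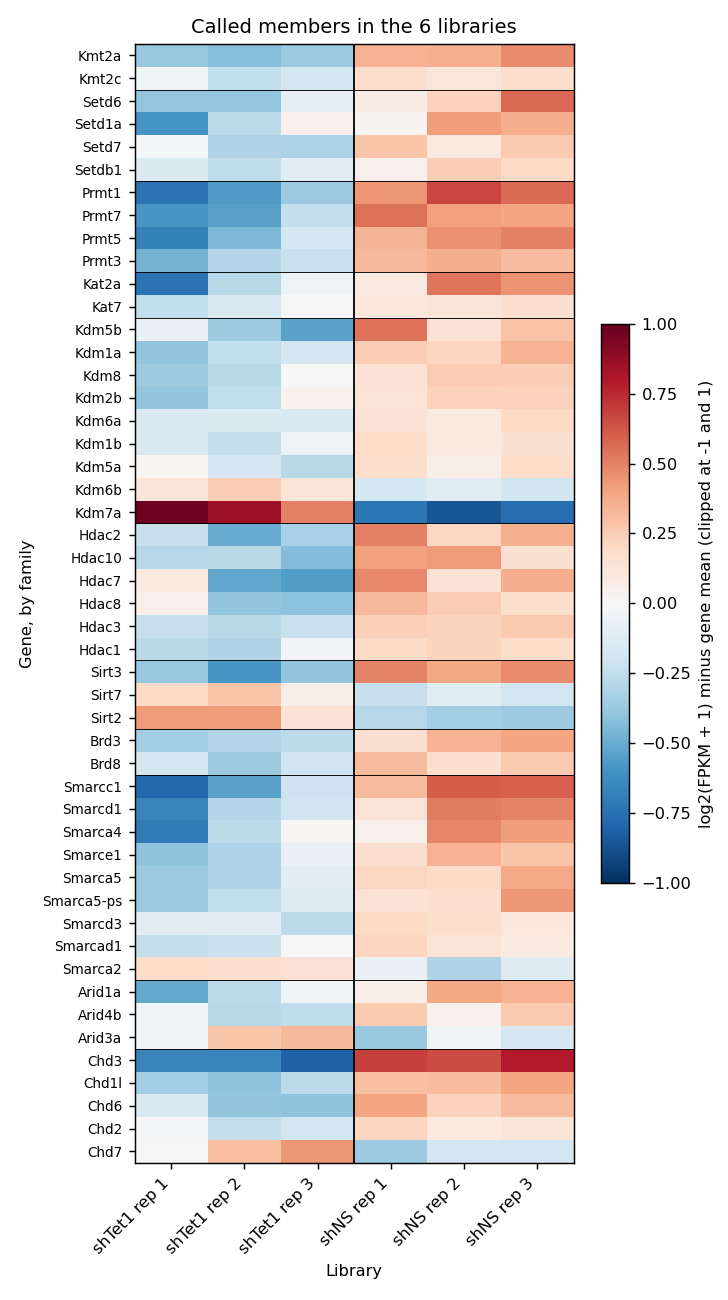
Rows are the 49 called members ordered by family, columns are the 6 libraries, and colour gives log2(FPKM + 1) minus the gene's mean over the 6, clipped at −1 and 1. The 42 genes that fell are mostly blue on the shTet1 side and the 7 that rose mostly red there, with shTet1 replicate 3 paler than replicate 1 for genes such as Setd1a, Kat2a and Smarca4.

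Demethylases held the largest rise of all members. Kdm7a (gene ID 338523, chromosome 6, 39136620 to 39206773), which removes methyl groups from lysines 9 and 27 of histone H3, stood at 21.5, 19.7 and 15.3 FPKM in shTet1, against 5.93, 5.33 and 5.73 FPKM in shNS. Even the lowest knockdown library was far above the highest control, and shTet1 held 332% of the shNS level (log2 change 1.56, SE 0.13, limma adjusted p = 9.48e-05). Kdm6b, or JMJD3, which removes the methyl mark of Polycomb on histone H3 lysine 27 and is induced in activated macrophages, was at 12.3, 13.4 and 12.2 FPKM in shTet1 and 9.70, 10.1 and 9.56 FPKM in shNS (log2 change 0.33, SE 0.08, limma adjusted p = 0.0102). Its groups did not overlap either.

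The Kdm7a window is printed because it had the most CpG of all 108 member windows, with each CG dinucleotide in capitals. It held 65 CpG, against a median of 24 over the members' windows and 7 over all windows, and 99.99% of all windows held fewer. Nothing in these data measures methylation there.
Kdm7a, chr6:39206724-39207023, minus strand: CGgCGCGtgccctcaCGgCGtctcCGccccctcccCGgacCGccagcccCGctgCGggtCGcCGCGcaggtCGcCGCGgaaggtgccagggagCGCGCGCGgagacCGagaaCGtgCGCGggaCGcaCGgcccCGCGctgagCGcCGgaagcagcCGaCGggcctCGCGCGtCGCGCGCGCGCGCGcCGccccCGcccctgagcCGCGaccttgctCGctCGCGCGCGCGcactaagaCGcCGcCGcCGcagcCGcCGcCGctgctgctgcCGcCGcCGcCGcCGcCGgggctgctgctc

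Lower demethylases were 7 of 16, beside 33.7% of all tested genes, and 3 of 16 with median-of-ratios scaling, beside 23.7%. Kdm1a, or LSD1, which removes methyl groups from lysine 4 of histone H3 and is a drug target in acute myeloid leukaemia, stood at 20.8, 23.3 and 24.4 FPKM in shTet1, against 33.1, 32.3 and 35.6 FPKM in shNS. The groups were well apart (log2 change −0.54, SE 0.09, limma adjusted p = 0.00163). Kdm5b, which removes methyl groups from the same residue, had 4.25, 3.30 and 2.80 FPKM in shTet1 and 7.02, 5.08 and 5.70 FPKM in shNS (log2 change −0.64, limma adjusted p = 0.00864). Kdm8 averaged 1.89 ± 0.377 FPKM in shTet1 and 2.87 ± 0.166 FPKM in shNS (log2 change −0.43, limma adjusted p = 0.0162). Kdm2b, a CpG island binding member of a variant Polycomb complex, averaged 8.33 ± 1.45 FPKM in shTet1 and 11.2 ± 0.453 FPKM in shNS (log2 change −0.40, limma adjusted p = 0.0238). The calls of Kdm8 and Kdm2b ended without shTet1 replicate 2, shNS replicate 2 or shNS replicate 3 (up to 0.0633 and 0.0785), and that of Kdm2b with median-of-ratios scaling (0.087). Among the members not called, Kdm4c, a demethylase of histone H3 lysine 9, had 10.98, 7.21 and 7.31 FPKM in shTet1 and 10.3, 6.71 and 8.15 FPKM in shNS (limma adjusted p = 0.96). In each group its replicate 1 library was the highest. Kdm4a averaged 21.1 ± 3.37 FPKM in shTet1 and 21.9 ± 1.80 FPKM in shNS, and its log2 change was −0.06 (limma adjusted p = 0.711), but 0.070 under the median-of-ratios scale.

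Zinc-dependent deacetylases fell in their class I members. Hdac2, a subunit of the Sin3, NuRD and CoREST complexes, stood at 34.0, 27.9 and 31.7 FPKM in shTet1, against 57.4, 46.3 and 51.5 FPKM in shNS (log2 change −0.71, SE 0.11, limma adjusted p = 0.00125). Hdac3, the catalytic subunit of the NCoR and SMRT complexes, had 28.8, 27.9 and 28.8 FPKM in shTet1 and 40.2, 39.6 and 40.9 FPKM in shNS (log2 change −0.48, SE 0.07, limma adjusted p = 0.000973). Its libraries lay within a narrow band in each group, which made a modest difference stand out. Hdac1, the partner of Hdac2, had 49.4, 48.4 and 58.7 FPKM in shTet1 and 68.4, 70.0 and 68.0 FPKM in shNS (log2 change −0.40, limma adjusted p = 0.00792). Hdac8, the other class I enzyme, averaged 4.99 ± 1.13 FPKM in shTet1 and 7.38 ± 0.430 FPKM in shNS (log2 change −0.50, limma adjusted p = 0.0162). The Hdac8 call ended without shTet1 replicate 2 (0.0639) and with limma-voom on recovered reads (0.0521). Outside class I, the polyamine deacetylase gene Hdac10 averaged 3.21 ± 0.249 FPKM in shTet1 and 5.68 ± 0.702 FPKM in shNS (log2 change −0.66, limma adjusted p = 0.00177). Hdac7, a class IIa member, had 8.07, 4.91 and 4.76 FPKM in shTet1 and 10.8, 8.37 and 9.90 FPKM in shNS (log2 change −0.66, limma adjusted p = 0.018). That call ended without shTet1 replicate 2, shTet1 replicate 3, shNS replicate 1 or shNS replicate 3 (up to 0.0711). Hdac4, Hdac5 and Hdac6 were not called, although Hdac5 was higher in the authors' deposited table (log2 fold change 0.29, authors' deposited adjusted p 0.0497). Hdac9 and Hdac11 lay under the expression filter in every library, at 0.321 ± 0.081 and 0.215 ± 0.0347 FPKM in shTet1 and 0.181 ± 0.0939 and 0.230 ± 0.0127 FPKM in shNS (exact two-sided permutation tests, p = 0.2 and 0.7, with 7 to 84 reads per library). By limma-voom on recovered reads 2 Hdac genes were called higher, among them Hdac9 (log2 change 1.03, adjusted p = 0.0364).

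Sirtuins, the NAD-dependent deacylases, went both ways. Sirt3, the main deacetylase of mitochondria, stood at 10.3, 8.76 and 10.1 FPKM in shTet1, against 19.7, 18.1 and 19.4 FPKM in shNS. Each knockdown value was close to the others and well below every control (log2 change −0.91, SE 0.09, limma adjusted p = 0.0002). Sirt2, a mostly cytoplasmic tubulin and histone deacetylase, had 45.03, 44.9 and 36.9 FPKM in shTet1 and 27.1, 26.03 and 25.8 FPKM in shNS (log2 change 0.66, SE 0.10, limma adjusted p = 0.00102). Sirt7, a nucleolar deacylase, had 46.3, 48.8 and 42.1 FPKM in shTet1 and 34.0, 36.7 and 35.1 FPKM in shNS (log2 change 0.36, SE 0.08, limma adjusted p = 0.00795). Both rises held whichever library was left out, and these 2 were also the members with the highest levels of the family. Sirt1, the nuclear enzyme, averaged 5.48 ± 0.595 FPKM in shTet1 and 6.77 ± 0.964 FPKM in shNS and was not called (limma adjusted p = 0.103), but became so with the replicate block (0.0323).

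**Figure D3:**
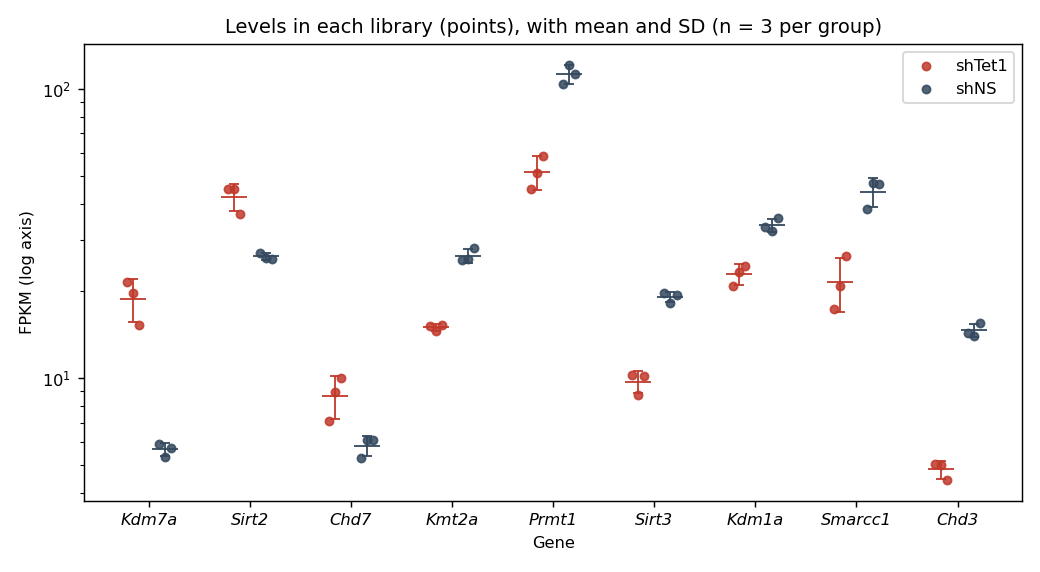
Levels of 9 members in each library on a log axis of FPKM, shTet1 left of shNS for each gene, with points for libraries and bars for the mean and SD (n = 3 per group). In each of the 9 genes the 2 groups do not overlap. Kdm7a, Sirt2 and Chd7 are higher in shTet1 and the others lower.

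Bromodomain readers showed 2 falls of 7, beside 33.7% of all tested genes, and the same 2 of 7 with median-of-ratios scaling, beside 23.7%. Brd3, a BET protein that binds acetylated histones, had 11.9, 12.3 and 12.6 FPKM in shTet1 and 17.1, 19.8 and 20.4 FPKM in shNS (log2 change −0.59, SE 0.09, limma adjusted p = 0.00125). Brd8, a subunit of an acetyltransferase complex with Kat5, had 19.1, 16.6 and 18.8 FPKM in shTet1 and 27.3, 24.6 and 26.2 FPKM in shNS (log2 change −0.50, limma adjusted p = 0.00227). Brd2, another BET gene, averaged 56.4 ± 11.7 FPKM in shTet1 and 61.5 ± 2.61 FPKM in shNS and did not pass the test (limma adjusted p = 0.439). Brd7 averaged 32.5 ± 0.909 FPKM in shTet1 and 35.9 ± 0.948 FPKM in shNS (limma adjusted p = 0.136).

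Most Smarc genes encode subunits of the SWI/SNF remodelling complex, named BAF in mammals. The 13 tested Smarc genes also include Smarca5, of the ISWI remodellers, and its pseudogene Smarca5-ps, both among the falls. Of the 13, 8 fell and 1 rose, beside 33.7% lower and 19.4% higher over all tested genes. With median-of-ratios scaling 5 fell and 1 rose, beside 23.7% and 24.8%. The core subunit gene Smarcb1 was not called. Smarcb1, or SNF5, averaged 25.8 ± 5.26 FPKM in shTet1 and 33.6 ± 3.92 FPKM in shNS (limma adjusted p = 0.0689), and the replicate block called it lower (0.0053). Smarcc2 and Smarcd2, paralogs of subunits that fell, were not called (limma adjusted p = 0.84 and 0.548). Smarcc1, or BAF155, stood at 17.4, 20.7 and 26.4 FPKM in shTet1, against 38.3, 47.0 and 46.8 FPKM in shNS, which put shTet1 at 48.8% of shNS (log2 change −1.02, SE 0.15, limma adjusted p = 0.00117). Smarcd1, or BAF60A, had 6.02, 8.06 and 8.65 FPKM in shTet1 and 11.2, 14.9 and 14.6 FPKM in shNS (log2 change −0.77, limma adjusted p = 0.00422). In both genes replicate 1 was the lowest library of its group, and the groups still did not overlap. Smarce1, or BAF57, averaged 31.8 ± 3.94 FPKM in shTet1 and 45.8 ± 3.07 FPKM in shNS (log2 change −0.52, limma adjusted p = 0.00443). Smarca4, the ATPase BRG1, had 16.4, 22.7 and 27.6 FPKM in shTet1 and 28.4, 38.9 and 37.0 FPKM in shNS (log2 change −0.64, SE 0.19, limma adjusted p = 0.0237). Smarca2, the alternative ATPase BRM, had 6.29, 6.24 and 6.13 FPKM in shTet1 and 5.11, 4.24 and 4.89 FPKM in shNS (log2 change 0.33, SE 0.09, limma adjusted p = 0.0179). The call of Smarca4 ended with median-of-ratios scaling (0.0651), and the calls of both ATPase genes ended without shTet1 replicate 2, shNS replicate 2 or shNS replicate 3 (up to 0.0798 and 0.072). Smarca5, the ISWI ATPase, averaged 43.4 ± 4.29 FPKM in shTet1 and 62.3 ± 4.64 FPKM in shNS (log2 change −0.51, limma adjusted p = 0.00328). Its pseudogene Smarca5-ps was at 19.3 ± 1.63 FPKM in shTet1 and 27.6 ± 3.24 FPKM in shNS, and since reads can be shared between the copies, neither value is certain.

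Among the 9 Arid genes, which share a DNA-binding domain, 2 fell and 1 rose, beside 33.7% lower and 19.4% higher over all tested genes. Arid1a, the BAF subunit most often mutated in cancer, had 21.8, 26.3 and 31.0 FPKM in shTet1 and 33.2, 41.8 and 40.5 FPKM in shNS (log2 change −0.54, SE 0.14, limma adjusted p = 0.0143). Median-of-ratios scaling ended the call (0.0511), as did leaving out shNS replicate 2 or shNS replicate 3 (up to 0.0575). Arid4b, a subunit of the Sin3 complex, averaged 9.32 ± 1.01 FPKM in shTet1 and 12.4 ± 1.13 FPKM in shNS (log2 change −0.38, limma adjusted p = 0.0191), and was not called with median-of-ratios scaling (0.0688). Arid3a, a transcription factor known from B cells and haematopoietic stem cells, had 21.4, 26.7 and 27.6 FPKM in shTet1 and 16.6, 21.4 and 19.3 FPKM in shNS (log2 change 0.38, limma adjusted p = 0.0357). The lowest knockdown value of Arid3a was nearly level with the highest control value. The calls of Arid4b and Arid3a ended without shTet1 replicate 2, shTet1 replicate 3, shNS replicate 1 or shNS replicate 3 (up to 0.0776 and 0.116).

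Chromodomain helicases held the largest fall of all members. Chd3 (gene ID 216848, chromosome 11, 69343273 to 69369499), an ATPase of the NuRD complex, which joins remodelling with deacetylation, stood at 5.03, 5.01 and 4.44 FPKM in shTet1, against 14.3, 13.98 and 15.5 FPKM in shNS. The groups were tight and far apart, with shTet1 at 33.1% of shNS (log2 change −1.42, SE 0.09, limma adjusted p = 5.05e-05). Chd4, the alternative NuRD ATPase and the member with the highest level of all 104, had 72.2, 88.0 and 98.3 FPKM in shTet1 and 92.5, 103 and 101 FPKM in shNS (limma adjusted p = 0.17), and was called lower with the replicate block (0.0438). Chd1l, a remodeller in DNA repair, averaged 7.53 ± 0.415 FPKM in shTet1 and 12.6 ± 0.509 FPKM in shNS (log2 change −0.67, limma adjusted p = 0.000506). Chd6 averaged 4.20 ± 0.529 FPKM in shTet1 and 7.03 ± 0.453 FPKM in shNS (log2 change −0.63, limma adjusted p = 0.00174). Chd2 averaged 11.3 ± 1.03 FPKM in shTet1 and 14.03 ± 0.657 FPKM in shNS (log2 change −0.29, limma adjusted p = 0.028), a call lost under median-of-ratios scaling (0.143) and whenever a library other than shTet1 replicate 1 was left out (up to 0.0971). Chd8 averaged 17.8 ± 1.15 FPKM in shTet1 and 20.7 ± 0.389 FPKM in shNS and was not called (limma adjusted p = 0.0562), but became so with the replicate block (0.0297). Chd7, the gene mutated in CHARGE syndrome in humans, went the other way, with 7.10, 8.97 and 10.004 FPKM in shTet1 and 5.30, 6.11 and 6.11 FPKM in shNS (log2 change 0.49, SE 0.13, limma adjusted p = 0.013). Of the 11 members of the group, 9 were tested and 2 lay under the filter. Chd5 was at 0.455 ± 0.0902 FPKM in shTet1 and 0.926 ± 0.101 FPKM in shNS, and Chd3os, a neighbour of Chd3 on chromosome 11, at 0.353 ± 0.179 FPKM in shTet1 and 0.780 ± 0.121 FPKM in shNS (exact two-sided permutation test, p = 0.1 for each). For both, no knockdown value reached the lowest control value, and limma-voom on recovered reads called both lower (adjusted p = 0.00376 for Chd5 and 0.0434 for Chd3os).

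Ratios of related genes within a library do not depend on how libraries are scaled, and 11 pairs of paralogs were compared in this way. The pairs, with partner genes not described so far, were chosen after their values were seen. For BRG1 over BRM (Smarca4 over Smarca2), the ratio of FPKM was 2.60, 3.64 and 4.50 in shTet1, against 5.55, 9.18 and 7.56 in shNS. For the scaffold subunits Smarcc1 over Smarcc2 it was 0.740, 0.792 and 0.908 in shTet1, against 1.56, 1.66 and 1.72 in shNS. Smarcc1 therefore stood below its paralog in every knockdown library and above it in every control. For the NuRD ATPases Chd3 over Chd4 the ratio was 0.0697, 0.0570 and 0.0451 in shTet1, against 0.155, 0.135 and 0.152 in shNS. For the acetyltransferases Kat2a over Kat2b it was 1.07, 2.04 and 2.69 in shTet1, against 3.12, 4.93 and 4.20 in shNS. Both ratios were lower in every knockdown library than in any control. The ratio of Kmt2a over Kmt2b averaged 1.42 ± 0.238 in shTet1 and 2.34 ± 0.209 in shNS, and that of Smarcd1 over Smarcd2 averaged 0.221 ± 0.0282 in shTet1 and 0.380 ± 0.0543 in shNS (SD, n = 3 each). Kdm6b over Kdm6a was higher in the knockdown, at 0.688 ± 0.0338 in shTet1 and 0.432 ± 0.0295 in shNS. Which gene of a pair stands on top was a choice and sets the direction, so a direction common to several pairs is no result. The groups overlapped for Hdac2 over Hdac1, at 0.602 ± 0.0772 in shTet1 and 0.752 ± 0.0892 in shNS. An exact two-sided permutation test gave p = 0.1 for each of the other 10 pairs (adjusted over the 11 pairs, 0.11), the smallest that 3 against 3 allows, and 0.2 for Hdac2 over Hdac1. Since the pairs were chosen with their values known, how many of them did not overlap is no result.

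**Figure D4:**
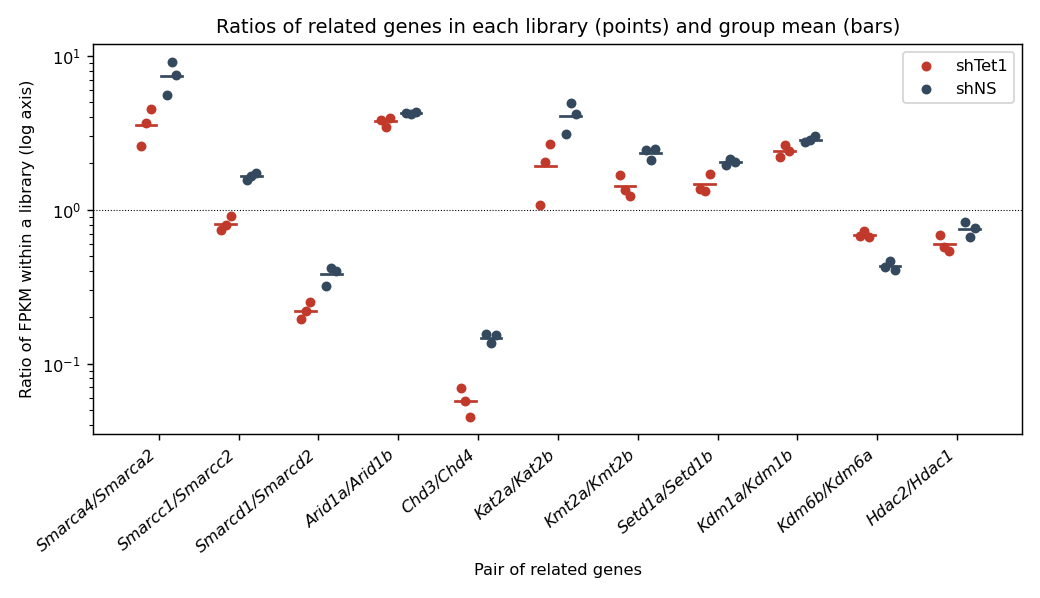
For 11 pairs of related genes, the ratio of their FPKM within each library is plotted on a log axis, shTet1 left of shNS, with points for libraries and bars for group means. The ratio of Smarcc1 over Smarcc2 lies below 1 in the 3 shTet1 libraries and above 1 in the 3 shNS libraries.

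Replicate 1 stood apart from replicates 2 and 3 in both groups, and chromatin genes shared in this. On the log2(FPKM + 1) scale, replicate 1 lay on the same side of the mean of replicates 2 and 3 in shTet1 and in shNS for 87 of 100 tested members, of which 50 were lower and 37 higher. Over all 11646 tested genes the share was 75.7%, and there the balance was the other way, with 4114 lower and 4703 higher. Among the members low in both groups were Smarca4 (by −0.58 in shTet1 and −0.41 in shNS), Kat2a (−0.58 and −0.40) and Setd1a (−0.48 and −0.36). Among those high in both were Kdm4c (0.54 in shTet1 and 0.42 in shNS), Sirt5 (0.29 and 0.60) and Hdac7 (0.64 and 0.23). These 6 were chosen after their values were seen, and the replicate block called Sirt5 lower in shTet1 (limma adjusted p 0.129 without and 0.0178 with the block). With the replicate number as a block, 55 members fell and 9 rose (41.0% and 23.1% of all tested genes), and without both replicate 1 libraries 45 fell and 8 rose (33.7% and 19.8% of all genes tested in that fit). The numbers used here are those in the titles. The descriptions instead carry number 2 for every shTet1 library and number 1 for every shNS library, and no label says what a number marks.

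**Figure D5:**
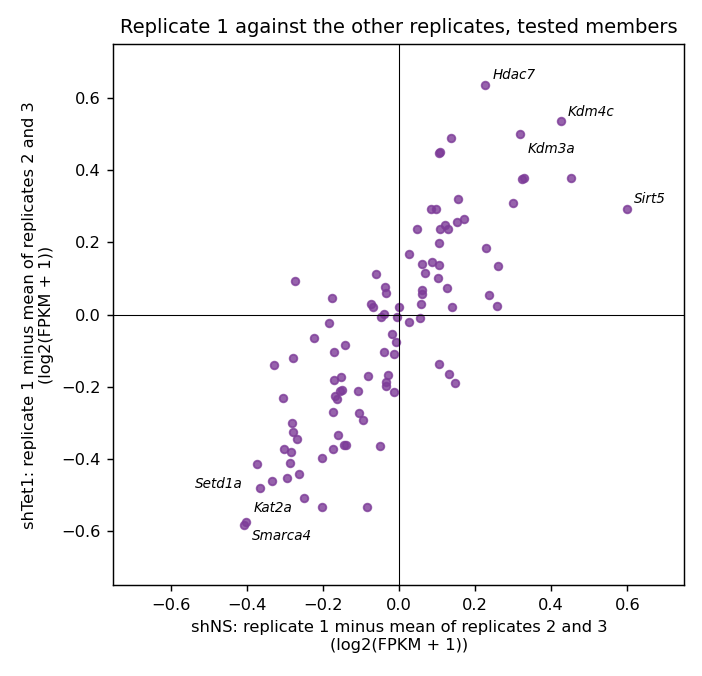
Each point is 1 of the 100 tested members. The axes give the log2(FPKM + 1) of replicate 1 minus the mean of replicates 2 and 3, in shNS on the x axis and in shTet1 on the y axis. Of the points, 50 lie in the lower left and 37 in the upper right.

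Partners of these enzymes, taken from lists of genes outside the symbol rule, were set against the same shares over all tested genes (33.7% lower and 19.4% higher, and 23.7% and 24.8% with median-of-ratios scaling). Cofactors of COMPASS and MLL fell in 9 of 11 cases and rose in 0 (7 falls with median-of-ratios scaling). Psip1, or LEDGF, which tethers MLL and menin to chromatin, averaged 14.2 ± 1.59 FPKM in shTet1 and 27.9 ± 0.967 FPKM in shNS (log2 change −0.93, limma adjusted p = 0.000245). Dpy30, a COMPASS subunit, changed by −0.64 (limma adjusted p = 0.000975) and Men1, or menin, by −0.48 (0.00205). Among 17 other histone methyltransferases 9 fell and 0 rose, led by Ezh2, the Polycomb enzyme (−0.81, limma adjusted p = 0.000166), with Suv39h1 (−0.76, 0.00102) and Smyd2 (−0.57, 0.00202). Of 14 tested MLL fusion partners and elongation factors, 4 fell and 0 rose, a share of falls below that of all genes. The falls included Aff3 (−1.72, limma adjusted p = 4.76e-05), Mllt1, which encodes ENL (−0.68, 0.00166), and Ell2 (−0.46, 0.00615). As for Kmt2a, the gene-level values of Mllt1 do not separate reads of the MLL-ENL fusion from reads of the native gene. Deacetylase partners fell in 10 of 22 cases and rose in 2. The corepressor gene Rcor2 changed by −1.64 (limma adjusted p = 0.000154), and the histone chaperone genes Rbbp7 and Rbbp4 by −1.03 (0.000177) and −0.64 (0.000608). Other remodeller subunits fell in 15 of 25 cases and rose in 0 (8 and 2 with median-of-ratios scaling), with Bcl7a (−0.996, limma adjusted p = 0.000154), Ruvbl2 (−0.92, 0.000317) and Ruvbl1 (−0.95, 0.000448) at the lowest p. Acetyltransferases outside the Kat symbols were mixed, with 3 of 9 lower and 2 higher, and 3 lower and 4 higher with median-of-ratios scaling. Gtf3c4 (−0.51, limma adjusted p = 0.00321) and Hat1 (−0.62, 0.00844) fell, and the nuclear receptor coactivator gene Ncoa1 rose (0.41, 0.00612). In the list of other Jumonji demethylases 1 of 4 fell, which was Jmjd6 (−0.33, limma adjusted p = 0.0141), and that call ended with median-of-ratios scaling (0.0774).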

How the data were processed

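The authors deposited 1 table with 6 columns of values, 1 for each library. No header names their unit, which was taken as FPKM because the low values of a gene are whole multiples of a step set by gene and library. Beside these stand the authors' deposited mean signal per group, fold change (a ratio), log2 fold change, p-value and adjusted p-value. Per the submitters' processing notes reads were placed on GRCm38; which aligner, counter and strand setting served is not given in the sources used here. Positions and promoters came from RefSeq (GRCm38.p6), which held all 104 member IDs.

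The main test was limma 3.58.1 (R 4.3.3) (trend by mean level) on log2(FPKM + 1) with group as the sole term, over genes that reached 1 FPKM in 3 or more libraries, Benjamini-Hochberg adjustment over 11646 genes and a two-sided threshold of 0.05. Fold changes on this scale understate those of low genes. Errors of levels are SD (n = 3), and errors of log2 changes are standard errors. Reads were recovered from the FPKM and the authors' group means (100.0% of values whole within 0.01 read) and tested with limma-voom as an alternative. Tested members held 18 to 11193 reads in a library. The code was tested on simulated data. Other alternatives were median-of-ratios scaling, other pseudocounts and filters, a replicate block and leaving out libraries.

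Members, gene lists, pairs and promoters were chosen with earlier results of these data known. The text names, per family, up to 4 called members in each direction by size of change, the 2 most expressed, 16 members of known interest in this leukaemia and those under the filter, and for each partner list up to 3 called genes with the smallest p. Other members named were chosen after their values were seen. One item that the rule takes, with its pair, is not reported here. Replicate numbers are those of the titles, with which the descriptions conflict. Same-numbered libraries deviated together from their group means (correlations across genes 0.61, 0.36 and 0.21 for replicates 1, 2 and 3). The replicate block took the numbers as pairs, and the main test did not use them. However, shTet1 replicate 3 correlated more with shNS replicate 2 (0.34) than with shNS replicate 3 (0.21), so the pairing of these replicates is uncertain. No label says that replicates were separate cultures; p-values therefore reflect spread among libraries that may be purely technical. The design allowed for counts or FPKM.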

Additional observations from a re-analysis of the deposited data

How the results depend on the processing

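Pseudocounts of 0.1 and 0.5 and no filter left 42 to 43 falls and 7 rises among the members, and a filter at 5 FPKM left 40 and 7. Rises numbered 12 with limma-voom on recovered reads (30 falls, beside 22.7% lower and 23.8% higher over all genes tested so) and 13 with the replicate block and median-of-ratios scaling together (36 falls), where 3469 of all tested genes were higher (29.8%, against 2254 without either) and 30.5% lower. Leaving out 1 library gave 24 to 42 falls and 5 to 8 rises among the members; 23 of the 42 falls and 5 of the 7 rises were called in each of the 6 fits. The replicate block gave 55 falls and 9 rises, and the text gives its value for each member described there whose call it changed. Of 56 tested members that the naming rule takes, 9 lost their call with median-of-ratios scaling. Members near 0 changed sign and were not called: Kmt2e (0.092 with median-of-ratios scaling, alone or with the block, 0.10 with limma-voom, 0.0062 without both replicate 1 libraries), Kdm4a (0.070, 0.073 and 0.0057 in the same order), Kdm4c (−0.024) and Brd2 (0.0068) without both replicate 1 libraries. With 1 library left out, Kmt2e ranged from −0.094 to 0.051, Setd3 from −0.015 to 0.027, Setd8 from −0.039 to 0.15, Kdm4a from −0.14 to 0.073, Kdm4c from −0.17 to 0.15 and Brd2 from −0.26 to 0.035. The causes were not tested.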
